A study of Mus musculus with 16 samples.

Results

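The difference between Adam8EQ mutant and wild-type mice was examined in tail discs that had not been injured. It rested on 7 of the 16 libraries of the series, 4 from mutants and 3 from the wild type, and on 23252 autosomal genes of the 44787 in the table, those with at least 1 TPM in at least 3 of the 16 libraries. TPM, the unit of all levels here, is a read count divided by gene length and scaled to the total of its library, and all differences are of mean log2(TPM + 1), mutant minus wild type. The mutants carried the allele that the labels call Adam8EQ and do not describe further. The comparison mice were wild type, and the series title names the inbred strain DBA for them. Whether other genetic differences separate the mutants from these mice was not tested. All 7 mice had intact discs, the libraries' Y-linked gene Ddx3y lay at 48.8 to 70.7 TPM and Xist at 0.284 TPM or below, and the labels used here give no age. Each library pooled 4 coccygeal discs of 1 mouse, cut away from the cartilaginous endplate, so the replicate is the mouse. A second set of 9 mice, 5 Adam8EQ and 4 wild type, had injured discs and served as a separate set in which the same genotypes could be compared.

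An intervertebral disc is a gel-like nucleus pulposus, which descends from the notochord, held inside a collagen-rich annulus fibrosus. ADAM8 is a membrane protease of the ADAM family, made mostly by activated immune cells and by injured or inflamed connective tissue, and it can cut cell-surface receptors and matrix proteins such as fibronectin. An uninjured disc has few immune cells and few blood vessels, so the intact comparison asks how far the genotypes differ before damage.

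In intact discs 3 autosomal genes differed between the genotypes at a limma adjusted p under 0.05, which is 0.0129% of those tested. Rtel1, a DNA helicase that takes apart telomere loops, and Crybg1, an actin-binding protein with crystallin-like domains, were lower in mutants (0.0086% of genes were called in that direction). Tmem181b-ps, a transcribed pseudogene of a transmembrane protein, was higher (0.0043%). The disc genes examined, from aggrecan to the notochordal keratins, were not called. An unadjusted p under 0.05 was reached by 861 genes (3.7%), 390 higher (1.68%) and 471 lower (2.03%) in mutants. The balance turned under several settings, among them without wild-type mouse 1 (430 higher, 304 lower), with only the mutants whose library names begin with M (576 and 413) and with a muscle score as a covariate (842 and 474). The TPM values of the genotypes did not overlap for 1432 genes (6.16%), 647 with mutants above (2.78%) and 785 with mutants below (3.38%). The median log2 difference over all autosomal genes was -0.01, and the median size of a difference, whatever its sign, was 0.15.

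The starts of both called protein-coding genes are shown because these genes passed the adjusted threshold. The windows are the bases from 250 to 26 before the start given by RefSeq on GRCm38.p6, 225 bases each, and the motif GGGCGG, known as a GC box, is in capitals on either strand (CCGCCC where it lies on the other strand). The Rtel1 window is chr2:181319474-181319698 on the plus strand, and the Crybg1 window, from the listed start nearest the gene's 5′ end, is chr10:44148854-44149078 on the minus strand.
Rtel1: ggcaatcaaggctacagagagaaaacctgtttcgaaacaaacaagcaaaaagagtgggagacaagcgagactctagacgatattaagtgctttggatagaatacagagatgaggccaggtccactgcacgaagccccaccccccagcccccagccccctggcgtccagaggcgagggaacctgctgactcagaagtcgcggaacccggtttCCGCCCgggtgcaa
Crybg1: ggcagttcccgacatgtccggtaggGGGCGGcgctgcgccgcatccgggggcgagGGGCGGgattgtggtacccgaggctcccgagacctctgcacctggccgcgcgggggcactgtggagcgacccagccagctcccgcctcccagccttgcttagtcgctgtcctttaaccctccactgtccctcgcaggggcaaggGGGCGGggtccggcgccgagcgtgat
The Rtel1 window holds 1 GC box and is 56% G or C, and the Crybg1 window holds 3 and is 72% G or C. Of the 32851 RefSeq windows of that length, 29.2% hold at least 1 such motif, and their median is 52% G or C. A match describes the letters and not a bound site.

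Rtel1 (ENSMUSG00000038685, GRCm38 chr2:181319739-181356616, plus strand) was at 53.3, 51.6 and 54.5 TPM in the wild-type mice 1 to 3. In mutants 1 to 4 it was at 19.99, 23, 25.4 and 25.2 TPM. Every mutant lay below every wild-type mouse, with a gap far wider than the spread inside either genotype. The means were 23.4 ± 2.52 TPM in mutants (SD, n = 4) and 53.1 ± 1.47 TPM in the wild type (SD, n = 3), a log2 difference of -1.16 ± 0.09 (SE, limma adjusted p 7.697e-05). Rtel1 was called under all 21 alternative settings as well. Among the 23 tested genes within 300000 bases of Rtel1, 0 were called by limma after adjustment, 1 had an unadjusted p under 0.05 (Stmn3, a stathmin that binds tubulin, at -0.86), and the median was 0.02. Stmn3 is the nearest tested gene on one side of Rtel1, and on the other Arfrp1, a small GTPase, differed by 0.21.

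In the separate injured mice Rtel1 showed the same separation. Injured wild-type mice 1 to 4 had 55.8, 52.1, 53.5 and 52.0 TPM, and injured mutants 1 to 5 had 19.1, 18.9, 18.2, 21.0 and 20.6 TPM. The log2 difference there was -1.40 ± 0.08 (SE, limma adjusted p 8.405e-07). The intact and injured differences themselves were not distinguished by the interaction test (limma adjusted p 0.6268). In the fit over all 16 libraries Rtel1 had the smallest p of all autosomal genes in both sets of mice. Both p-values share that fit's estimate of the spread. In a fit of the intact libraries alone its unadjusted limma p was 8.513e-06, and Gm26137 was among the genes with a smaller one (1.068e-06). Rtel1 levels in wild-type mice were alike with and without injury.

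Crybg1 (ENSMUSG00000019866, chr10:43950636-44148853, minus strand) was at 35.0, 32.9 and 33.6 TPM in the wild type. The 4 mutants had 7.69, 9.61, 9.78 and 12.6 TPM. The highest mutant was thus far below the lowest wild-type mouse, and the log2 difference was -1.69 ± 0.21 (SE, limma adjusted p 0.008625). In injured mice Crybg1 was at 30.6, 27.8, 21.6 and 26.2 TPM in the wild type and at 9.43, 10.9, 11.6, 20.7 and 12.04 TPM in mutants. The groups did not overlap there either (4.68% of genes did not overlap in injured mice), with a log2 difference of -1.02 ± 0.19 (SE, limma adjusted p 0.02872). The 3-prime end of Crybg1 overlaps Rtn4ip1, a mitochondrial oxidoreductase gene on the other strand, which differed by -0.39, also the median of the 9 tested genes within 300000 bases, and reads from the overlap could not be assigned to a strand from the sources used here. Crybg1 missed the threshold when intact mutant 1 or any single wild-type mouse was left out, with adjusted p from 0.0511 to 0.09147, while the log2 difference stayed between -1.71 and -1.59. It also missed with only the intact libraries fitted (adjusted p 0.05135) and with only the mutants whose library names begin with M (adjusted p 0.1594).

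Tmem181b-ps (ENSMUSG00000096780, chr17:6438524-6467022, minus strand) was at 29.3, 28.6 and 26.9 TPM in the wild type. The mutants had 48.8, 58.7, 45.9 and 47.0 TPM, all above the wild type. The log2 difference was 0.80 ± 0.11 (SE, limma adjusted p 0.01466), and in injured mice it was 0.77 ± 0.09 (SE, limma adjusted p 0.004129) with no overlap. The related copies on the same chromosome differed less, Tmem181a by 0.01 and Tmem181c-ps by 0.13, and the division of reads among such copies is uncertain. Dynlt1, a light chain of the dynein motor that lies beside the pseudogene, was at 16.8, 9.41 and 7.58 TPM in the wild type and at 16.3, 27.4, 27.7 and 28.2 TPM in mutants. Its groups overlapped through mutant 1, its log2 difference was 1.12 ± 0.30 (SE) and its limma adjusted p was 1. In injured mice Dynlt1 was higher in mutants by 0.91 ± 0.26 (SE, limma adjusted p 0.08964), without overlap. Tmem181a was higher there by 0.41, also without overlap, and Tmem181c-ps by 0.05 with overlap. Of all genes, 4.68% did not overlap in injured mice. Tmem181b-ps missed the threshold in 11 of the 21 alternatives, including leaving out mutant 1 or any wild-type mouse (adjusted p 0.06083 to 0.09696).

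**Figure D1:**
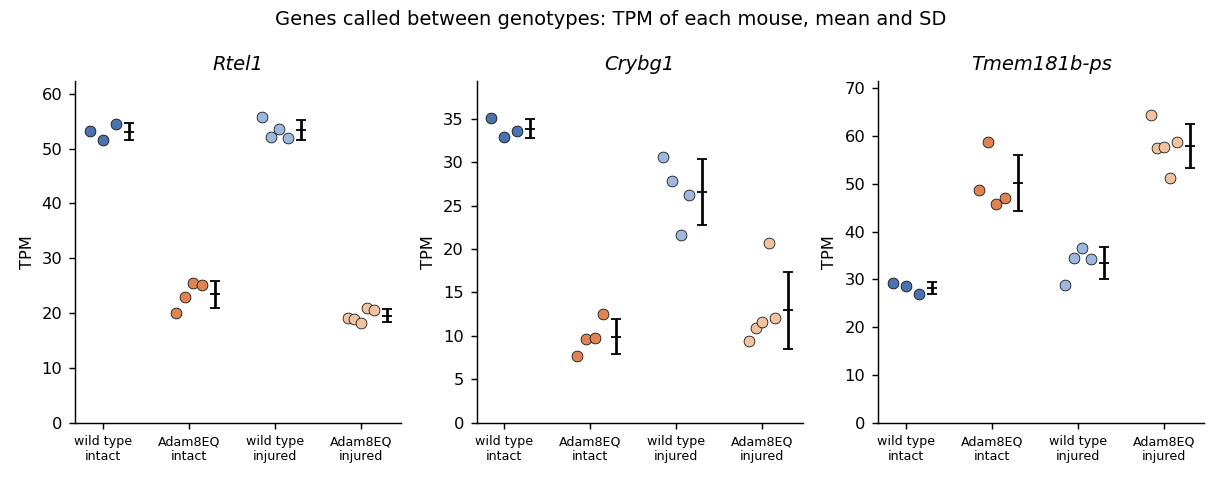
TPM of the 3 autosomal genes called between genotypes, 1 point per mouse in the 4 groups (x axis), with the mean and SD as bars beside the points; y axes are TPM and start at 0. For Rtel1, Crybg1 and Tmem181b-ps the mutant and wild-type points are apart in intact discs, and apart again in the separate injured mice.

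**Figure D2:**
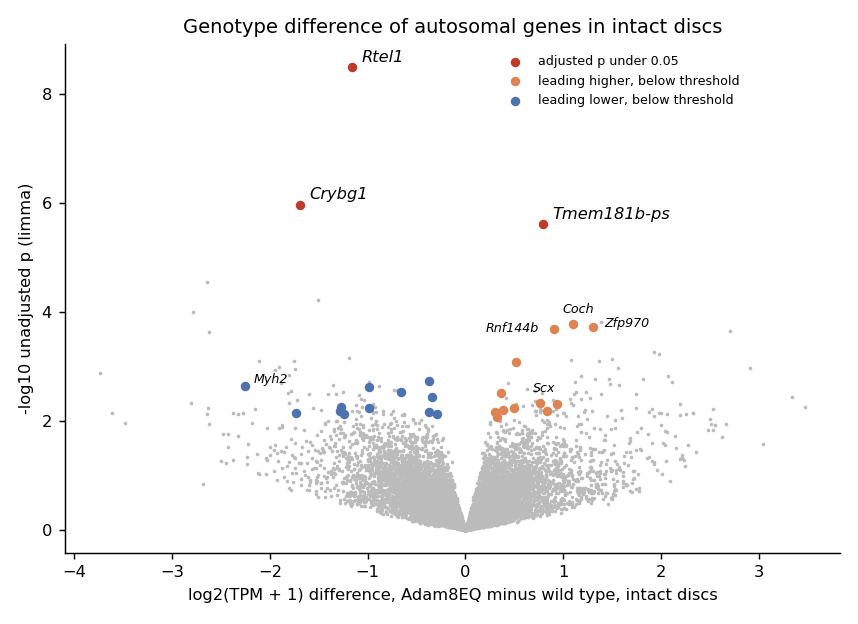
Each grey point is 1 of the 23252 autosomal genes, with its log2(TPM + 1) difference in intact discs on the x axis and the negative log10 of its unadjusted limma p on the y axis. Rtel1, Crybg1 and Tmem181b-ps (red) stand above the other genes. Orange and blue points are the 12 leading genes in each direction that did not pass the adjusted threshold. They were taken among genes without overlap, leaving out predicted-gene, pseudogene, small RNA and clone names.

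Adam8, the gene that carries the mutation, was near the lower limit of the data in intact discs. Its level was 1.24, 1.69 and 1.59 TPM in the wild type and 2.97, 1.09, 0.956 and 1.20 TPM in mutants, which corresponds to 15 to 34 reads per library. Mutant 1 was the highest and the other 3 mutants the lowest of the 7. The log2 difference was -0.03 ± 0.92 (SE, limma adjusted p 1), short of the threshold, and the level of the transcript does not check the allele. The error is that of the fit over all 16 libraries, injured ones included. Of 219 tested genes within 10 Mb of Adam8, 0 were called by limma, 2 were higher and 3 lower at an unadjusted p under 0.05, and the median difference was -0.01.

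Beneath the called genes stood the 12 leading genes in each direction, with limma adjusted p from 0.4057 to 1. Their groups did not overlap, a condition of their selection. The selection also left out genes with predicted-gene, pseudogene, small RNA or clone names. Coch, which encodes the extracellular matrix protein cochlin, was at 5.69, 7.03 and 8.39 TPM in the wild type and 15.8, 16.3, 18.3 and 14.2 TPM in mutants, a log2 difference of 1.10 ± 0.22 (SE). Every mutant thus had a higher Coch level than any wild-type mouse, while in injured mice the genotypes overlapped and differed by 0.16. The zinc finger gene Zfp970 was at 17.3, 16.5 and 8.21 TPM in the wild type and 29.8, 48.9, 26.9 and 36.2 TPM in mutants. It differed by 1.31 in intact and 0.86 in injured mice, the latter again without overlap. The ubiquitin ligase Rnf144b was at 18.1, 15.0 and 12.8 TPM against 32.8, 37.4, 23.6 and 25.7 TPM in mutants. Its log2 difference of 0.91 ± 0.19 (SE, limma adjusted p 0.4068) did not pass in intact discs, whereas in injured discs it was 1.45 ± 0.16 (SE, limma adjusted p 0.002166). Herpud1, part of the machinery that degrades misfolded proteins of the endoplasmic reticulum, was likewise higher by 0.36 in intact discs and called in injured discs at 0.63 (limma adjusted p 0.01088).

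Matn2 and Ippk were ordered one way in intact discs and the other way in injured discs. Matn2, whose product matrilin-2 is a filament-forming matrix adaptor, was at 95.4, 108 and 115 TPM in the wild type and 165, 160, 157 and 127 TPM in mutants. The intact log2 difference was 0.51 ± 0.12 (SE) and the injured one -0.57 ± 0.11 (SE). Ippk, the kinase that makes inositol hexakisphosphate, differed by 0.32 ± 0.11 in intact discs and by -0.65 ± 0.09 in injured discs (SE). In injured discs both passed the threshold as lower in mutants, with limma adjusted p of 0.03215 for Matn2 and 0.01104 for Ippk. The test of the change between intact and injured discs gave a limma adjusted p of 0.1058 for both, the smallest among autosomal genes, and none passed. At an unadjusted p under 0.05 that test had 1881 genes (8.09%).

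Scx, the tendon and annulus transcription factor scleraxis, was at 17.9, 23.5 and 11.9 TPM in the wild type and 33.1, 26.6, 31.2 and 28.9 TPM in mutants, a log2 difference of 0.76 ± 0.23 (SE). All mutants were above all wild-type mice, and in injured mice the groups overlapped with a difference of -0.25. The other leading higher genes were Fam166b (0.94), the phosphatase Dusp14 (0.49), the galactosyltransferase Ggta1 (0.38), the GABA receptor subunit Gabra4 (0.84) and the microtubule-linker gene Clip3 (0.30). Each of these 5 had overlapping groups in injured discs.

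Among the leading lower genes, Alad, an enzyme of heme synthesis, was at 83.8, 80.6 and 64.7 TPM in the wild type and 59.0, 55.6, 56.7 and 62.6 TPM in mutants. It differed by -0.37 in intact discs, and in injured discs by -0.60 (limma adjusted p 0.01104). Trav13-1, a variable segment of the T-cell receptor alpha chain, differed by -1.28 in intact and -1.90 in injured discs, the latter passing (limma adjusted p 0.02999). Its levels were low, at 8.21, 2.85 and 7.03 TPM in the intact wild type and 0.936 to 2.44 TPM in intact mutants. In injured discs it was at 0 in every mutant and at 0.844 to 5.80 TPM in the wild type. Sox7, a transcription factor of endothelial cells, was at 7.82, 3.81 and 6.47 TPM in the wild type and 0.859, 2.67, 1.88 and 2.25 TPM in mutants. Its difference of -1.27 in intact discs was close to the -1.22 of injured discs, where the groups overlapped.

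The 9 remaining leading lower genes had overlapping groups in injured mice. They were the histone gene Hist1h3c (-1.73), the fatty acid binding protein gene Fabp7 (-0.98), the mitochondrial transcription factor gene Mterf1b (-0.99), Igsf3 (-0.66), the poly(A)-binding protein gene Pabpc4 (-0.34), the chromodomain gene Cdyl (-0.37), the mitochondrial chaperone gene Dnaja3 (-0.29), Flnc, the muscle filamin (-1.24), and Myh2, a fast muscle myosin (-2.26). In wild-type mice 1 to 3 Myh2 stood at 23.2, 8.32 and 6.196 TPM, and in mutants at 1.02, 1.37, 0.787 and 3.26 TPM. Without wild-type mouse 1 the differences were -1.74 for Myh2 and -0.86 for Flnc.

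**Figure D3:**
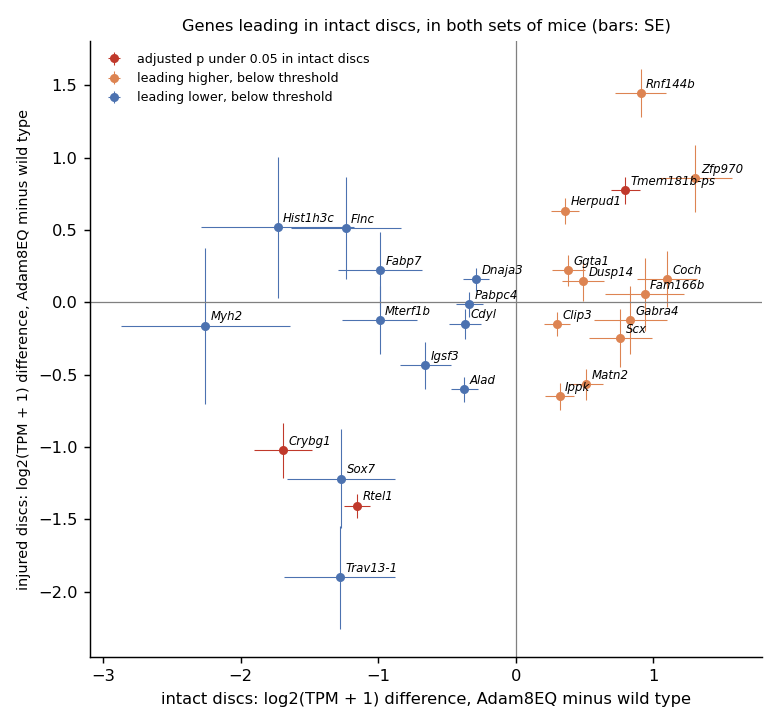
Genotype difference on the log2(TPM + 1) scale in intact discs (x axis) and in the separate injured mice (y axis) for the 3 called genes (red) and the 12 leading genes in each direction below the threshold (orange higher, blue lower in intact mutants); bars are SE. Rtel1, Crybg1 and Tmem181b-ps keep their direction, and Matn2 and Ippk lie on opposite sides of 0 in the 2 sets.

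The same question was put to a larger set of leading genes. The 100 autosomal genes with the smallest p in a fit of the 7 intact libraries alone were compared with a separate fit of the 9 injured libraries, which share no mouse with them. Of these, 61% had the same direction in injured mice, against 55.49% of all autosomal genes. The share was 51% without wild-type mouse 1 and with only the mutants whose library names begin with A8. It was 54% without mutant 2 and with the muscle score as a covariate. These lie under the 55.49% of the main fits, and the background of each such setting is not given here. The same direction with an unadjusted p under 0.05 was reached by 16%, against 9.582% of all. Among the leading 50 genes 52% had the same direction, and among the leading 500 it was 63.2%. Across all 23252 genes, which are not independent of one another, Pearson's r of the intact and injured differences was 0.129. For scale, the injured comparison called 203 autosomal genes (0.873%), and 4686 reached an unadjusted p under 0.05 (20.2%).

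The tissue label was compared with marker genes. Acan, the aggrecan core protein, was at 5926 to 6913 TPM, and T (brachyury), the notochordal transcription factor, at 1789 to 3370 TPM in the 7 libraries, and both were high in every mouse. The notochordal genes Shh, Noto and Krt15 were at or near 0. A pair of libraries stood apart. Wild-type mouse 1 had the highest summed muscle, erythroid, adipocyte, interferon and immediate-early levels, and mutant 3 had summed notochordal markers of 8199 TPM against 14790 to 17440 TPM in the other 6. Values without one or both of them are given for some of the lists and genes named here. As the tissue was bulk, fewer cells of a type and less RNA per cell cannot be told apart.

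Cartilage matrix genes, which give the disc its load-bearing gel, leaned higher in mutants without any call. Of 23 tested members 19 had a positive difference, 0 were called by limma and 0 had an unadjusted p under 0.05, and the median was 0.20. It was 0.11 without wild-type mouse 1 and mutant 3 and 0.64 with the muscle score as a covariate. In injured mice the median of the list had the other sign, -0.56. Chad (chondroadherin, a cell-binding matrix protein) was at 13180, 15930 and 17190 TPM in the wild type and 17910, 17290, 17910 and 18410 TPM in mutants. Ucma, a secreted cartilage protein, was at 125, 143 and 168 TPM against 262, 235, 216 and 250 TPM. Both had every mutant above every wild-type mouse, but differences of 0.22 ± 0.63 and 0.73 ± 0.73 (SE) in the fit over all 16 libraries, and they were the 2 of 23 members without overlap in that direction (2.78% of all genes). In the fit of the 7 intact libraries alone, Ucma had an unadjusted limma p of 0.0004767. Its difference in the injured mice was -2.07. Acan, by contrast, was at 6074, 6878 and 6317 TPM in the wild type and at 6310, 5926, 5927 and 6913 TPM in mutants, a difference of -0.04. With only the mutants whose library names begin with A8 the median of the list was -0.02.

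The annulus and tendon-like matrix list also leaned higher, 15 of 20 members, with a median of 0.22 and only Scx at an unadjusted p under 0.05. Scx, Dcn and Col1a2 were the 3 of 20 members without overlap in that direction (2.78% of all genes). Col1a2 encodes a chain of type I collagen and Dcn the proteoglycan decorin, which spaces collagen fibrils. Col1a2 was at 229, 268 and 287 TPM in the wild type and 471, 403, 301 and 319 TPM in mutants. Dcn was at 1233, 1453 and 1886 TPM and 2763, 2651, 1951 and 2147 TPM, also apart. The log2 differences were 0.50 ± 0.38 for Col1a2 and 0.65 ± 0.33 for Dcn (SE), and in injured mice they were -0.80 and 1.026. The median of the list was -0.04 with the muscle score as a covariate and 0.04 without wild-type mouse 1 and mutant 3. In injured mice it was -0.21.

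Notochordal and nucleus pulposus genes leaned lower, 11 of 13 with a median of -0.40 and 0 at an unadjusted p under 0.05. Foxa1, a pioneer transcription factor, was at 8.20, 7.79 and 7.54 TPM in the wild type and 5.08, 4.14, 3.15 and 5.83 TPM in mutants. Cd24a and the cadherin gene Cdh2 were also lower without overlap, which made 3 of 13 members (3.38% of all genes in that direction). T was at 3370, 3030 and 2623 TPM against 2634, 2828, 1789 and 2916 TPM. Without mutant 3 the median of the list was -0.18, and with the muscle score as a covariate it was 0.31.

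**Figure D4:**
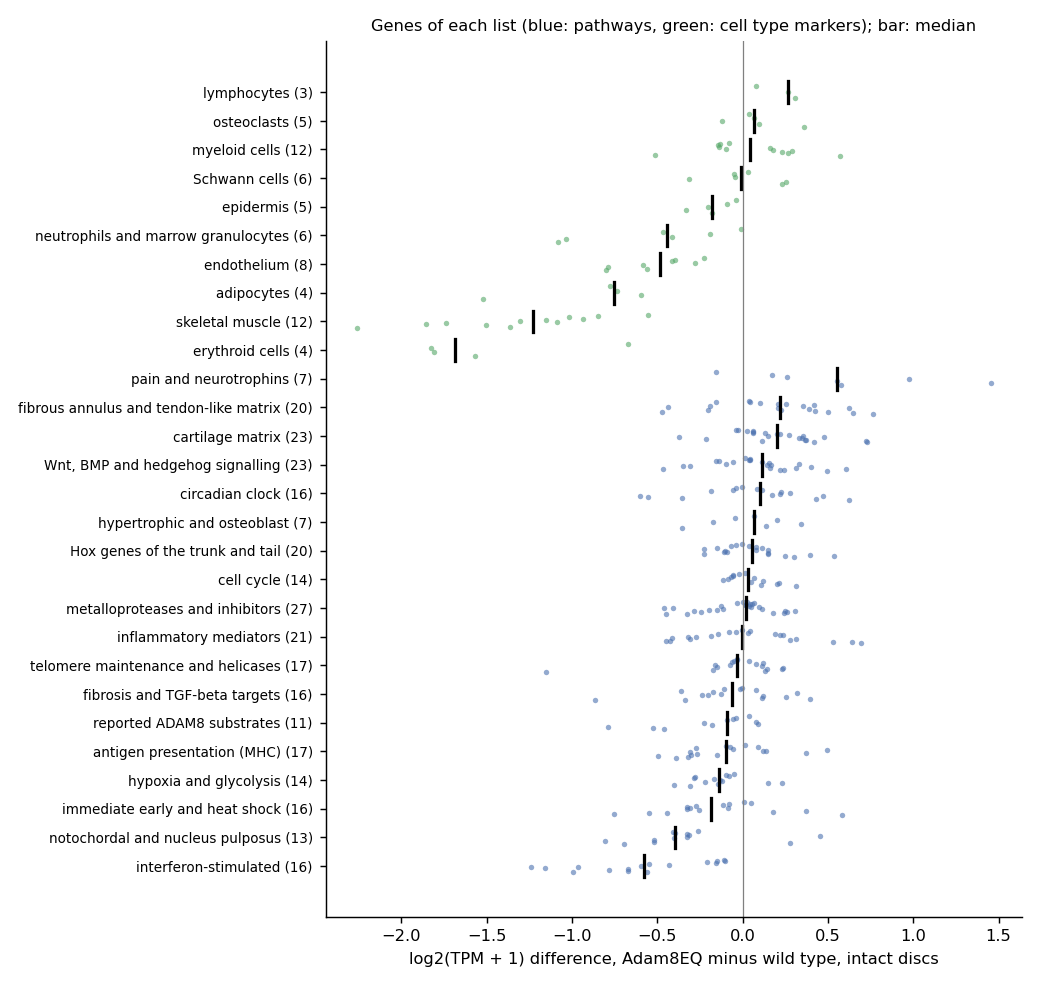
Log2(TPM + 1) difference, Adam8EQ minus wild type, of each tested autosomal gene (points) in 18 pathway lists (blue) and 10 marker lists (green), with the median as a bar and the number of tested genes in parentheses. Medians of most pathway lists lie close to 0, the interferon list is lowest among them, and the erythroid and skeletal muscle lists are the lowest of all.

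Interferon-stimulated genes, which are switched on by type I interferon, were lower in mutants for 16 of 16 members, with a median of -0.58 and 0 calls by limma. An unadjusted p under 0.05 was reached by 3 members (2.03% of all genes were lower at that p), and 8 of 16 had no overlap (3.38% of all genes in that direction). Bst2, a protein that tethers budding viruses, was at 34.6, 44.2 and 21.9 TPM in the wild type and 21.5, 19.1, 9.82 and 14.8 TPM in mutants, a difference of -0.997 ± 0.444 (SE). Usp18, a brake on interferon signalling, was at 19.1, 17.4 and 17.0 TPM against 12.5, 12.1, 7.52 and 11.9 TPM. The sum over the list was 466, 357 and 247 TPM in wild-type mice 1 to 3 and 190 to 265 TPM in mutants, so that wild-type mouse 3 lay inside the mutant range. Without wild-type mouse 1 the median was -0.39, and in injured mice it was 0.09.

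Skeletal muscle markers were lower in mutants for 12 of 12 tested members, with a median of -1.23, 0 calls by limma and 5 at an unadjusted p under 0.05 (Myh2, Mylpf, Tnnc2, Mb and Acta1), against 2.03% of all genes lower at that p. Acta1, muscle actin, was at 362, 168 and 92.9 TPM in the wild type and 56.4, 59.4, 41.9 and 54.9 TPM in mutants. The summed list was 1066, 483 and 261 TPM in wild-type mice and 174 to 224 TPM in mutants, and Myh4 was at 0.226 TPM or below in all. Without wild-type mouse 1 the median was -0.69. The part of muscle tissue in the other differences was not tested beyond a fit with the muscle score as a covariate, in which Rtel1, Crybg1 and Zfp970 were called and Tmem181b-ps was not (adjusted p 0.07529).

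Markers of red cells, endothelium and neutrophils had negative differences, with 0 calls by limma. Among erythroid genes 4 of 4 were lower (median -1.69; -1.35 without wild-type mouse 1); Hba-a1, a hemoglobin chain, was at 286, 116 and 134 TPM in the wild type and 40.8, 17.8, 66.6 and 93.5 TPM in mutants. All 8 endothelial markers were lower (median -0.49; -0.17 without wild-type mouse 1), at summed levels of 5.68 to 13.9 TPM in mutants and 12.2 to 28.8 TPM in the wild type. Elane, neutrophil elastase, was at 2.21, 1.025 and 1.69 TPM against 0, 0.684, 0 and 0.337 TPM. Of the 6 tested neutrophil markers 6 were lower (median -0.44; -0.19 without wild-type mouse 2), while Mpo and Ly6g were at 0 in all 7 libraries. Myeloid markers were split 6 and 6 (median 0.04, and -0.15 without mutant 3). The 4 tested adipocyte markers were lower (median -0.75, and -0.08 without wild-type mouse 1). Medians were -0.18 for 5 epidermal, -0.01 for 6 Schwann cell, 0.06 for 5 osteoclast and 0.26 for 3 lymphocyte markers, the last 0.04 without mutant 1 and 0.07 without wild-type mouse 2 or 3. The part of these cells in the genotype difference was not tested.

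**Figure D5:**
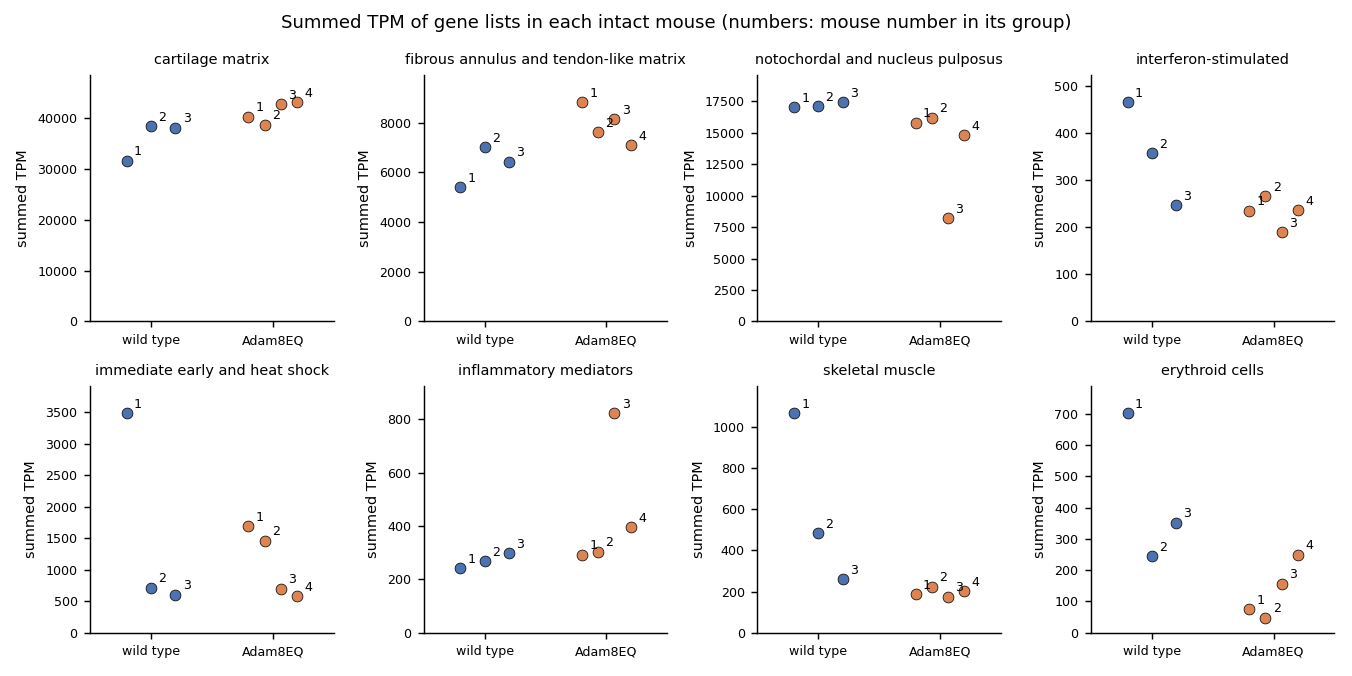
Summed TPM (y axis, from 0) of 8 gene lists in each intact mouse, wild type in blue and Adam8EQ in orange, numbered by mouse. Wild-type mouse 1 is highest for the interferon, immediate-early, muscle and erythroid lists, and mutant 3 lies apart for the notochordal and inflammatory lists.

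Genes of pain and sensory nerves were higher for 6 of 7 members, with a median of 0.56 that was 0.32 without mutant 3 and 0.20 without wild-type mouse 1 and mutant 3. Piezo2, the touch-sensing ion channel, was at 25.1, 20.1 and 26.2 TPM in the wild type and 38.3, 39.9, 34.2 and 31.3 TPM in mutants, a log2 difference of 0.58 ± 0.22 (SE). Every mutant was above every wild-type mouse, and in injured mice the difference was -1.10. Ntrk2, a receptor of neurons, was at 7.30, 9.33 and 9.72 TPM against 11.9, 11.5, 22.4 and 10.1 TPM, also without overlap, with mutant 3 the highest. Piezo2 and Ntrk2 were the 2 of 7 members without overlap in that direction (2.78% of all genes). The clock repressor genes Per1, Per2, Per3 and Cry2 were higher without overlap, 4 of 16 clock genes (2.78% of all genes in that direction). Per2 was at 70.2, 69.9 and 60.4 TPM against 104, 97.4, 108 and 104 TPM, with a limma adjusted p of 1. The list as a whole had 9 of 16 higher and a median of 0.10, which was 0.01 without mutant 3 and -0.07 with only the mutants named A8. In injured mice the median of the clock list was -0.35, and Per1 and Per2 differed by -0.85 and -0.14.

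Among 20 tested Hox genes of the trunk and tail, 11 were higher and 9 lower in mutants. Hoxc8 (0.30) and Hoxd13 (0.54) were higher at an unadjusted p under 0.05 (1.68% of all genes), and 0 were lower at that p. Without overlap 2 members were higher and 1 lower (2.78% and 3.38% of all genes). The list's median was 0.06 (-0.02 without wild-type mouse 1). Rtel1 was the only member of the 17 tested telomere and helicase genes that was called; Terf2, a shelterin protein that binds telomeric DNA, differed by 0.13 and Tert, the telomerase catalytic subunit, by 0.23. The median of that list was -0.03. Metalloproteases and their inhibitors had a median of 0.02 over 27 genes, and the reported ADAM8 substrates -0.09 over 11, with 0 calls by limma in either and 0 at an unadjusted p under 0.05.

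The immediate-early and heat shock list separated mice inside a genotype more than the genotypes. Fos was at 1079, 37.8 and 20.9 TPM in the wild type and at 393, 381, 27.4 and 23.2 TPM in mutants. The 2 mutants with library names beginning with A8 (mutants 1 and 2) were the high pair, and those beginning with M (3 and 4) the low pair. Rtel1 was called with either pair alone. The list's median of -0.19 turned to 0.26 without wild-type mouse 1. Inflammatory mediators had a median of -0.01 over 21 genes, with a summed level of 823 TPM in mutant 3 and 242 to 397 TPM in the other 6 mice.

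The remaining lists had medians between -0.14 and 0.11. Without wild-type mouse 1 and mutant 3 the hypoxia and glycolysis median was -0.06. Without mutant 3 the Wnt, BMP and hedgehog median was 0.02. Antigen presentation had a median of -0.10 over 17 genes, hypoxia and glycolysis -0.14 over 14 (12 lower and 2 higher; 0.04 with the muscle score as a covariate), cell cycle 0.03 over 14, fibrosis and TGF-beta targets -0.06 over 16, Wnt, BMP and hedgehog signalling 0.11 over 23, and hypertrophic and osteoblast genes 0.07 over 7. Vegfa, the vascular growth factor of the hypoxia list, was at 306, 305 and 267 TPM in the wild type and 226, 239, 215 and 265 TPM in mutants, and H2-T23 of the antigen presentation list was lower without overlap too. Acta2, smooth muscle actin, was at 111, 128 and 163 TPM against 80.4, 84.9, 40.2 and 99.7 TPM. Together the pathway lists held 296 tested genes, of which 1 was called (Rtel1), 4 were higher and 4 lower at an unadjusted p under 0.05 (1.68% and 2.03% of all genes), 15 were higher and 19 lower without overlap (2.78% and 3.38% of all genes), and the median was -0.01.

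The precision of the fit over all 16 libraries bounds the differences. The median half-width of the 95% interval of a gene's log2 difference was 0.58. The interval lay between -1 and 1 for 64.76% of autosomal genes and for 43.92% of the pathway genes, and reached past 1 in size for the others.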

How the data were processed

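The members and gene lists were chosen with earlier results of these data known. Levels are TPM as computed and deposited by the authors, in a single table whose columns were matched to the labels by name. Per the labels' protocols, RNA from 4 discs per mouse was depleted of ribosomal RNA, although the molecule field reads polyA RNA. Per the submitters' processing notes bcl2fastq 2.20 and build GRCm38 were used; the aligner, counting and strand are not given in the sources used here. The TPM values imply 10197051 to 13729535 reads per intact library. 99.5% of the 49315 identifiers were found in GENCODE M21, which gave positions.

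The test was limma 3.58.1 (R 4.3.3; lmFit, eBayes with trend) on log2(TPM + 1) with all 16 libraries and a mean per group. Filtering at 1 TPM in 3 libraries left 24188 genes, over which p-values were adjusted by Benjamini-Hochberg (threshold 0.05), and 23252 autosomal ones are reported. SE is limma's moderated error. Differences on this scale understate changes of low genes. On data simulated with independent normal noise, 181 of 200 genes with a log2 change of 2 were recovered among 24188, with 4 false calls. The changed genes were well expressed, and the change was larger than that of any called gene. Recovery of smaller changes or of low genes was not simulated. Genes named were Adam8, the called genes, list members and, with no overlap and a mean of at least 5 TPM, the 12 smallest p in each direction. Genes with predicted-gene (Gm), Rik, pseudogene (-ps), -rs, small RNA or clone names were left out before these 12 were taken. Alternatives are in the closing section. Same-numbered mice did not deviate together (r -0.02, -0.02 and -0.10), so no pairing was used. The p-values of this fit set a difference against the moderated spread between mice inside the groups of all 16 libraries, injured ones included. Some list members are not reported here.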

Additional observations from a re-analysis of the deposited data

Results flagged for a closer look

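In intact mutants, 3 of 56 groups of 4 mice had 1 mouse far from the others, and about 1 in 20 such groups is flagged by chance. The muscle filamin Flnc was at 4.09 TPM in mutant 1 and 3.11 to 3.27 TPM in the others. Adam8 was at 2.97 TPM in mutant 1 and at most 1.20 TPM in the others. The summed fibrosis and TGF-beta target list was at 21530 TPM in mutant 4 and 16570 to 17350 TPM in the others.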

How the results depend on the processing

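The 3 calls became 8 with only the mutants whose names begin with A8, 5 with only the intact libraries fitted, 6 with limma's sample weights, and 1 to 6 when single mice were left out (1 without mutant 1 and without wild-type mouse 1; 6 without mutant 3). Rtel1 was called in every one of the 21 alternatives. Genes at an unadjusted p under 0.05 numbered 460 with a filter at a mean of 5 TPM, 1425 with only the intact libraries, 1679 with sample weights and 1316 with the muscle score as a covariate. List genes at that threshold, 15 in the main fit, numbered 48 with only the intact libraries, 39 with sample weights, 7 to 17 without single mice and 8 without wild-type mouse 1 and mutant 3 together, a setting chosen after seeing the data. Adam8 changed sign, to 0.20 with the A8 mutants and 0.0154 with quantile normalization, and ranged from -0.27 to 0.0727 without single mice; with the muscle score as a covariate it was -0.89. With mouse number as a block 2 genes were called, 843 had an unadjusted p under 0.05, 19 list genes did and Adam8 was at -0.12; Tmem181b-ps was not called (adjusted p 0.2175). The cause of these shifts was not tested. Of 563 values of single genes, 543 stayed on their side of the threshold, 18 were lost and 2 (Coch, Zfp970) gained it. Most of the 563 belong to genes not called in the main fit, and all 18 lost were of Crybg1 or Tmem181b-ps. With the main fit counted, Crybg1 was called in 15 of 22 settings, Tmem181b-ps in 11 and Rtel1 in 22. Intact Adam8 rests on 15 to 34 reads per library.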
